A study of Mus musculus with 24 samples.

Results

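The Hox cluster genes are the protein-coding genes of the mouse whose symbol is Hoxa, Hoxb, Hoxc or Hoxd followed by a number. This rule found 39 of the 21887 protein-coding genes of the RefSeq table for GRCm38.p6, with 11 in the Hoxa cluster, 10 in Hoxb, 9 in Hoxc and 9 in Hoxd. The rule used no measured value. Each gene was taken with 5 kb on either side, and peaks that overlapped this window by 1 bp or more were recorded in 8 peak lists.

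Hox genes encode homeodomain transcription factors that give cells their position along the body axis. In each cluster they stand in the order in which they are used from head to tail. The low-numbered genes act in the hindbrain and neck, the middle ones in the trunk, and the high-numbered ones in the lower trunk, limbs and genital tract. Outside their domains they are kept off by Polycomb group proteins, and MLL proteins methylate H3K4 where the genes are on. The neural retina grows out of the forebrain, ahead of the territory in which Hox genes are normally used, so the clusters were examined as loci expected to be silent.

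The lists come from CUT&RUN, in which an antibody directs a nuclease to a chromatin-bound protein and the released DNA is sequenced. Whole retinas of wild-type mice were taken at postnatal day 2 (P2), an age at which new retinal neurons and glia are still arising, and at postnatal day 17 (P17). At each age there were 4 libraries for the transcription factor SOX8, from 2 antibodies, and 2 each for SOX9, for H3K4me3 (a mark of active promoters), for H3K27ac (a mark of active promoters and enhancers) and for a nonspecific IgG. The labels used here do not state the strain, sex or number of animals, and whole retina mixes all cell types. The deposited data used here are 8 lists of peak positions, 1 for each target and age, with no height and no replicate, so no value below has a replicate error and no test was made; the counts of Hox genes stand beside the same counts over all protein-coding genes. The IgG libraries were not analysed here.

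The tissue was checked through 8 genes of retinal cells (Nrl, Crx, Rcvrn, Six3, Six6, Rax, Pax6 and Otx2). H3K4me3 peaks lay at 7 of them at P2 and at 8 at P17, against 49.3% and 50.9% of all genes, and Rcvrn, the photoreceptor gene for recoverin, lacked one at P2. Of another 8 genes, for transcription factors used in the hindbrain or spinal cord, where Hox genes are on, Olig2 and Isl2 had a P2 H3K4me3 peak and 0 had one at P17. H3K27ac peaks lay at 5 of these 8 at P2 and at 2 at P17, against 81.8% and 57% of all genes. Among them, SOX9 peaks lay at Olig2 at P2 and Isl2 at P17, and SOX8 peaks at Pax2 and Tlx3 at P17. Some of these 8 genes also have roles in the eye.

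No Hox gene had a SOX8 or SOX9 peak at either age. The count was 0 of 39 in the P2 SOX8 list, where 15.1% of all protein-coding genes had a peak. It was 0 of 39 in the P17 SOX8 list, against 13% of all genes. In the P2 SOX9 list it was 0 of 39 against 27.7%, and in the P17 SOX9 list 0 of 39 against 15.7%. At these shares, 39 genes would hold 5.88, 5.08, 10.8 and 6.14 genes with a peak in the same order. The 39 windows overlap one another and merge into 10 intervals of 452 kb at 4 loci, so the members are not independent of each other. Genes of other kinds with lengths in the range of the Hox genes (1784 to 44009 bp) had peaks about as often as all genes, at 15.6%, 14.5%, 27.9% and 17.2% of 13974 genes. The upper end of this range is set by Hoxa3, and most Hox genes are far shorter. The comparison thus does not match genes by length.

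The promoter mark gave the same count. No Hox gene had an H3K4me3 peak at P2, where 49.3% of all genes had one, or at P17, where 50.9% did. At those shares 19.2 and 19.8 of 39 genes would have had a peak. H3K4me3 was thus recorded at none of the anterior genes, such as Hoxb1 and Hoxa2, which pattern the hindbrain, and at none of the posterior genes, such as Hoxa13 and Hoxd13, which shape the digits.

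H3K27ac was recorded at 2 of 39 Hox genes at P2, against 81.8% of all genes, and at 0 of 39 at P17, against 57% of all genes. The P2 list is by far the longest, with 287845 peaks against 29909 at P17. At the shares of all genes, 31.9 Hox genes would have had a peak at P2 and 22.2 at P17. The peaks of the P2 list covered 29.1% of the bases in the windows of all genes and 0.106% of those in the Hox windows, or 478 bases. At P17 these values were 12.7% and 0%. Of all genes, 17.7% had no peak in any of the 8 lists, and 37 of the 39 Hox genes (94.9%) had none. In the same wide length range, 51.2% of other genes had P2 H3K4me3, 52.5% P17 H3K4me3, 84.2% P2 H3K27ac and 58.5% P17 H3K27ac. As above, these genes were not matched to the Hox genes by length.

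**Figure D1:**
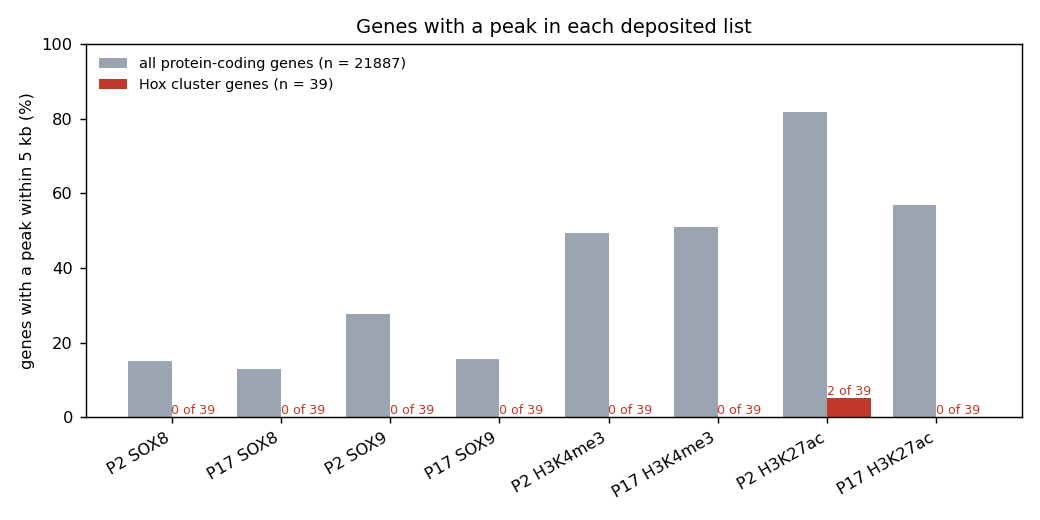
Percentage of genes with a peak within 5 kb, for all 21887 protein-coding genes (grey) and the 39 Hox cluster genes (red), in each of the 8 lists; each list is 1 value per bar, with no replicates. Grey bars run from 13% to 81.8%, and the only red bar above 0 is P2 H3K27ac, at 2 of 39 genes.

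The only peak at the clusters was a P2 H3K27ac peak of 478 bp in Hoxa11, at chr6:52245218-52245695. Hoxa11, which helps build the forearm, kidney and uterus, lies on the minus strand at chr6:52242105-52245810. The peak lies inside the gene, from 115 to 592 bp downstream of its start site, and also overlaps the antisense transcript Hoxa11os. It fell in the 5 kb window of Hoxa10, a neighbouring gene active in the uterus, whose body lies 4.36 kb away. The peak was narrow: 1.25% of the peaks of its list were narrower, and the median width was 1166 bp. No H3K4me3, SOX8 or SOX9 peak, and no P17 peak of any target, lay near it, the closest being the SOX9 peaks 229 kb from Hoxa11.

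With age, the 4 targets showed almost nothing to compare at Hox genes. For SOX8, SOX9 and H3K4me3, 39 of 39 genes had no peak at either age. For H3K27ac, Hoxa10 and Hoxa11 had a peak at P2 only, 0 genes had one at P17 only and 37 had none. Over all genes, 5486 had H3K27ac at P2 only and 69 at P17 only, so a peak found at P2 only is the common kind of difference between these lists, which differ in length.

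How far the clusters lay from the nearest peak differed by cluster and by target. In the P2 H3K27ac list the 11 Hoxa genes lay 0 to 53.3 kb from a peak (median 26.0 kb), the 9 Hoxc genes 14.4 to 95.9 kb (median 66.8 kb), the 9 Hoxd genes 24.8 to 99.9 kb (median 88.6 kb) and the 10 Hoxb genes 68.5 to 160 kb (median 124 kb). All Hoxb genes were thus farther away than any Hoxa gene. Several of the Hoxa distances, such as those of Hoxa9 (17.8 kb), Hoxa10 (4.36 kb) and Hoxa13 (13.2 kb), run to the narrow Hoxa11 peak. The order of the clusters at P2 thus rests in part on a peak that the P17 list lacks. The median over all protein-coding genes was 0 kb, since most overlap a P2 H3K27ac peak. At P17 the H3K27ac distances were longest for Hoxa (304 to 405 kb) and shortest for Hoxd (59.7 to 118 kb), so the order of the clusters was not the same at both ages. For H3K4me3, the P2 distances were 378 to 479 kb for Hoxa, 117 to 289 kb for Hoxb, 198 to 254 kb for Hoxc and 60.0 to 118 kb for Hoxd, against a median of 5.19 kb over all genes.

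Distances to SOX peaks stood out less. The Hoxd genes lay 756 to 851 kb from a P2 SOX9 peak and 893 to 987 kb from a P17 SOX9 peak. The Hoxa genes were 142 to 246 kb from a SOX9 peak at both ages, but 684 to 787 kb from a SOX8 peak. Over all Hox genes the median distance to a P17 SOX9 peak was 208 kb, below the 232 kb over all protein-coding genes with a peak on their chromosome. For P2 SOX9 it was 209 kb against 62.6 kb. For SOX8 the Hox median was 684 kb at both ages, against 177 kb at P2 and 292 kb at P17, and it was carried by Hoxa and Hoxd, since the Hoxb and Hoxc genes all lay within 289 kb.

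**Figure D2:**
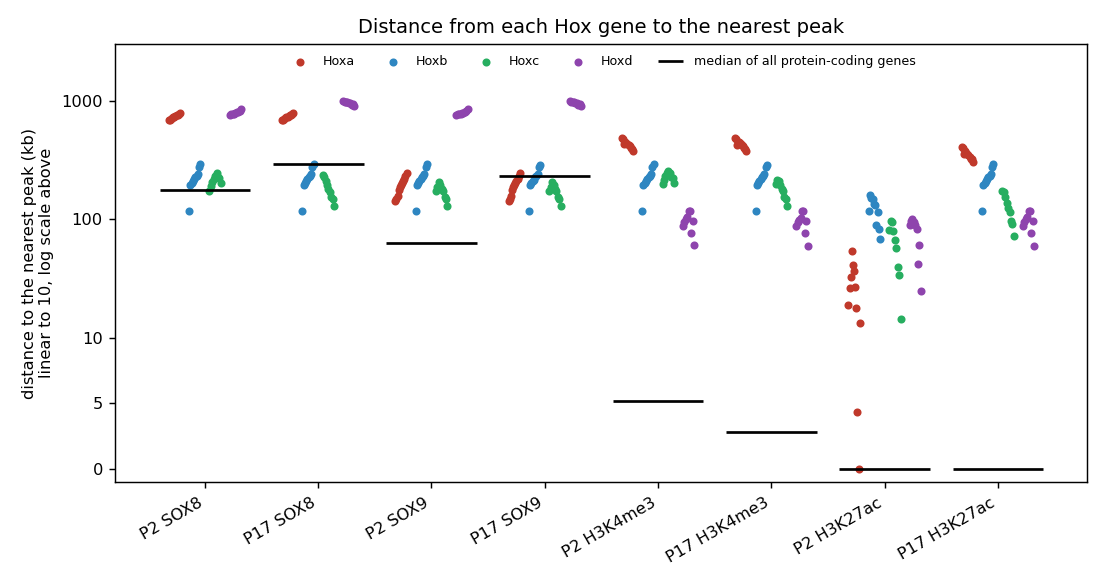
Distance in kb (linear to 10 kb, log scale above) from each of the 39 Hox genes to the nearest peak of each list; points are genes, in genomic order within each cluster, and black lines are the medians of all protein-coding genes. In the P2 H3K27ac list all Hoxb points lie at 68.5 kb or more, while Hoxa11 overlaps a peak.

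Grouped by position along the body axis, the 8 anterior genes (groups 1 to 3), the 15 central genes (groups 4 to 8) and the 16 posterior genes (groups 9 to 13) had the same count of 0 in 7 lists. In the P2 H3K27ac list the counts were 0, 0 and 2. The anterior genes had a median distance of 36.9 kb to a P2 H3K27ac peak, the central genes 57.0 kb and the posterior genes 89.2 kb, with ranges that overlapped (19.0 to 88.8, 14.4 to 151 and 0 to 160 kb). Hoxd1, an anterior gene at the end of its cluster, lay 24.8 kb from a peak outside the cluster. Of the central genes, Hoxc4 was nearest at 14.4 kb. Of the posterior genes, Hoxb9 was farthest at 160 kb, and Hoxb13, a gene of the prostate and tail that stands apart from the rest of its cluster, lay 118 kb away.

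The empty intervals reached well past the genes. The Hoxb cluster (chr11:96194316-96368254, from Hoxb13 to Hoxb1) lay in an interval of 360 kb without a P2 H3K27ac peak. The median gap between neighbouring peaks of that list was 2.43 kb, and 156 of 287784 gaps (0.0542%) were longer. These gaps include stretches of the genome that cannot be mapped. A cluster without a peak lies in a gap at least as long as itself, so the ranks of such gaps partly restate the counts above. The Hoxc cluster (chr15:102921131-103036856, from Hoxc13 to Hoxc4) lay in a gap of 210 kb, with 352 longer gaps. The Hoxd cluster (chr2:74668225-74765142, from Hoxd13 to Hoxd1) also lay in a gap of 210 kb, with 353 longer gaps. In the Hoxa cluster, on chromosome 6, the Hoxa11 peak ended a gap of 109 kb that held 9 of the 11 genes whole, with 1081 longer gaps.

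In the other lists the gaps around the clusters ranked lower among all gaps. In the P17 H3K27ac list, 1.6% of gaps were longer than that around Hoxa, 2.18% longer than that around Hoxb, 4.23% longer than that around Hoxc and 6.11% longer than that around Hoxd. For H3K4me3 the shares ran from 5.79% (Hoxa) to 23.8% (Hoxd) at P2 and from 5.55% (Hoxa) to 23.2% (Hoxd) at P17. In the P2 SOX9 list 13.2%, 14.6%, 23.2% and 6.32% of gaps were longer than those around Hoxa, Hoxb, Hoxc and Hoxd, and in the P17 SOX9 list 20.2%, 21.5%, 29.3% and 10.3%. In the SOX8 lists the shares were 10.9%, 27.5%, 36.2% and 14.5% at P2 and 3.7%, 23.3%, 30% and 12.3% at P17. The gap with the smallest share in a SOX list was that around Hoxa in the P17 SOX8 list, at 6231 kb.

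P2 H3K27ac peaks were fewer inside the clusters than beside them, and fewer beside them than over that list as a whole. Within 250 kb on each side, the P2 H3K27ac list held 12 peaks around Hoxa, 27 around Hoxb, 44 around Hoxc and 13 around Hoxd, counted by peak centre. That is 2.4, 5.4, 8.8 and 2.6 peaks per 100 kb, against 0.948 inside Hoxa and 0 inside the other clusters, and 10.8 over the whole list (peaks divided by the span from the first to the last peak of each chromosome). For H3K4me3 at P17, 3 peaks on the Hoxb13 side, 6 around Hoxc, 2 around Hoxd and 0 around Hoxa lay in the same flanks. That is 0.6, 1.2, 0.4 and 0 peaks per 100 kb, against 0.378 over that list. These flanks were thus above the list as a whole around Hoxb and Hoxc, about equal to it around Hoxd and empty around Hoxa. Each of these rates rests on 6 peaks or fewer. P17 H3K27ac peaks numbered 3.2 per 100 kb around Hoxc, against 1.17 over their list, and 0, 0.4 and 0.6 around Hoxa, Hoxb and Hoxd. The flanks of Hoxa held 1 SOX9 peak at each age and no SOX8 peak, and those of Hoxd held no SOX peak. The Hoxc flanks held most, with 5 SOX9 and 3 SOX8 peaks at P2.

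**Figure D3:**
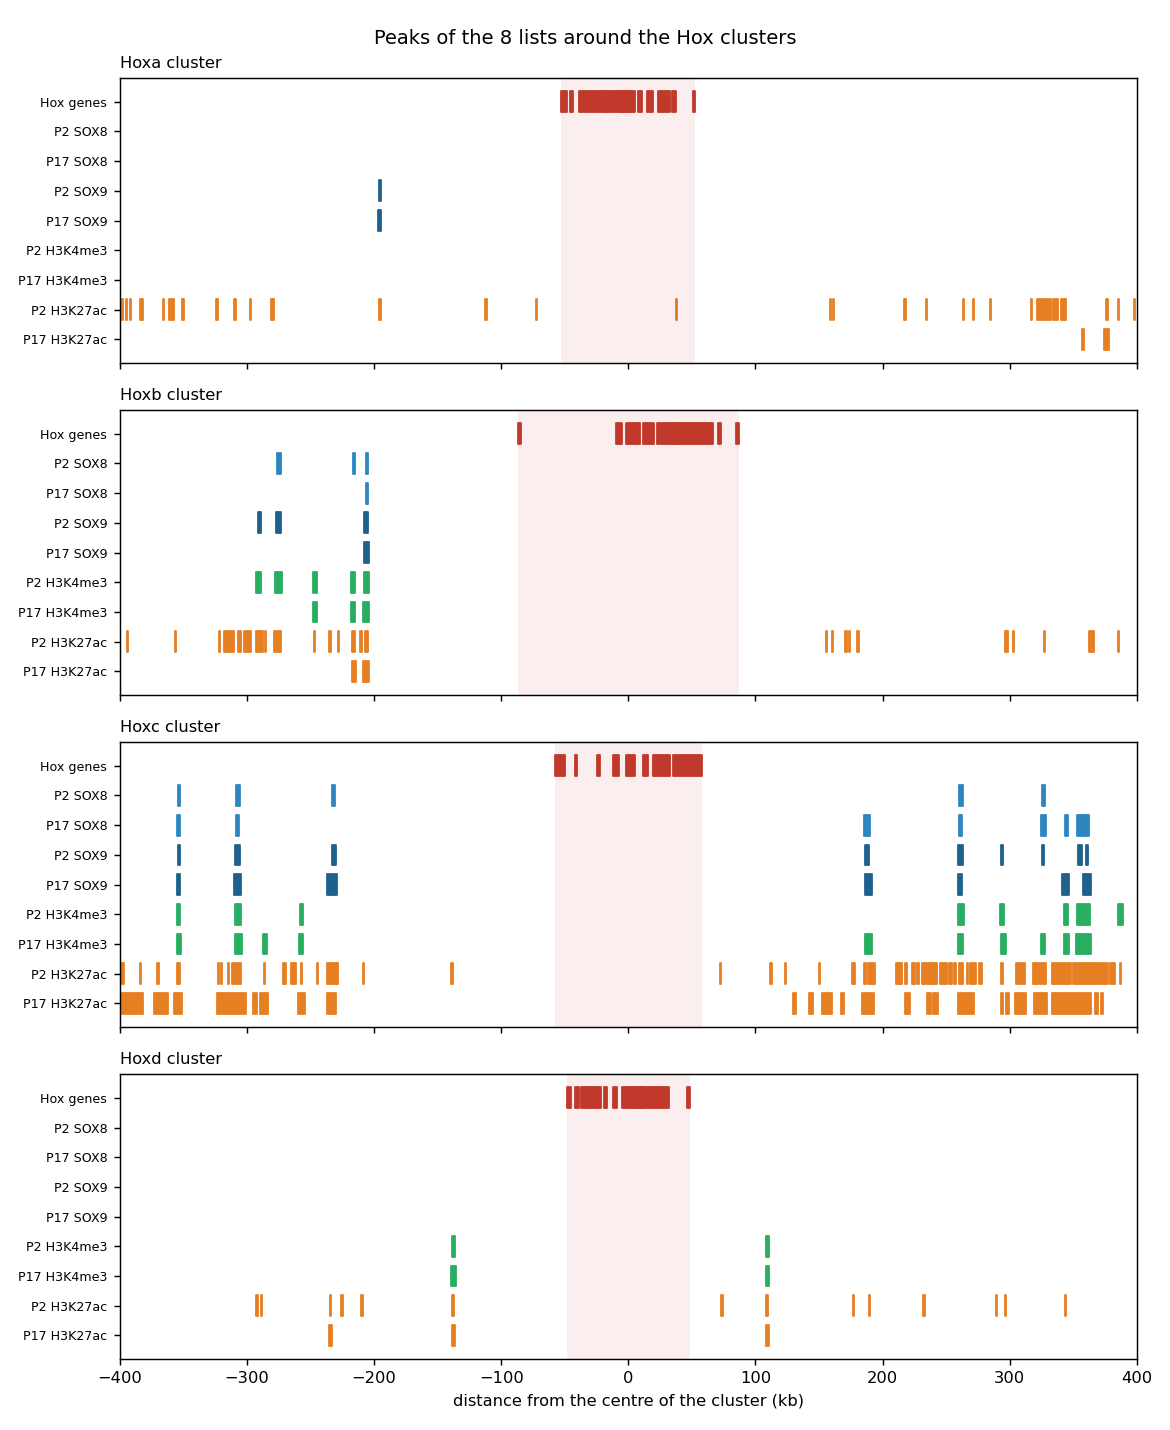
Peaks of the 8 lists (rows) within 400 kb of the centre of each Hox cluster, with Hox genes in red and the cluster shaded; the horizontal axis is distance in kb, and features under 1 kb are drawn 1 kb wide. Within the shaded spans the only bar that is not a gene is the P2 H3K27ac peak in Hoxa11.

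The nearest protein-coding genes in the table outside each cluster differed among themselves. Evx1, beside Hoxa13, and Evx2, 6.71 kb from Hoxd13, encode homeodomain factors related to Hox proteins, and neither had a peak in any list. Ttll6, 28.1 kb from Hoxb13, had none either. On the other side of Hoxd, Mtx2, which encodes a mitochondrial outer membrane protein, had 1 H3K4me3 peak and 1 H3K27ac peak at both ages. Calcoco1, beyond Hoxc13, also had an H3K4me3 peak at both ages. Smug1, a DNA repair gene beyond Hoxc4, had a SOX9 peak at both ages and a SOX8 peak at P17. Skap2, 143 kb from the Hoxa cluster, had a SOX9 peak at both ages, 6 P2 H3K27ac peaks and no H3K4me3 peak.

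Promoters were then examined, because H3K4me3 usually lies at promoters rich in the dinucleotide CpG, and many Hox promoters are CpG-rich. The RefSeq table of promoters (GRCm38.p6) has 24 entries for 22 of the 39 genes, each of 300 bases with 250 before the start site. Most are of Hoxa and Hoxd genes: Hoxc has only the entry of Hoxc4, and Hoxb only those of Hoxb1, Hoxb4 and Hoxb8. Of these 24 promoters, 0 were overlapped by a peak of any list. The P2 H3K27ac peak in Hoxa11 begins 115 bp downstream of the start site, just past the end of the Hoxa11 window. The CpG counts of the 24 promoters ran from 4 to 45, with a median of 14.5, against a median of 13 over 21263 promoters of protein-coding genes. Among the 9945 other promoters with at least the median Hox count, 76.5% were overlapped by P2 H3K4me3, 77.0% by P17 H3K4me3, 87.0% by P2 H3K27ac, 74.6% by P17 H3K27ac and 41.4% by P2 SOX9, and 8.72% by no peak of any list. Of the Hox promoters, 12 have that many CpGs.

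The sequences show how CpG-rich a Hox promoter without H3K4me3 can be. The most CpG-rich promoter entry of each cluster (for Hoxc the only entry) and that of Hoxa11 are given. Shown are the 250 bases before the start site, 5′ to 3′ on the gene's strand, with each CpG in capitals. They are chr6:52260881-52261130 on the minus strand for Hoxa13, chr2:74667975-74668224 on the plus strand for Hoxd13, chr11:96318017-96318266 on the plus strand for Hoxb4, chr15:103034145-103034394 on the plus strand for Hoxc4 and chr6:52245811-52246060 on the minus strand for Hoxa11. They hold 35, 31, 14, 8 and 13 CpGs in that order.
Hoxa13: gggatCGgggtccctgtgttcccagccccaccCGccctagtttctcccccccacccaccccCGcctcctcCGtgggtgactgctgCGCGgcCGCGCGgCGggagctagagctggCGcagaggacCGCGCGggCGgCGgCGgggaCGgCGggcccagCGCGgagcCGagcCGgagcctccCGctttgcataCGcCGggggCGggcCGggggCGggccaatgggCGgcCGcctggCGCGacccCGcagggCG
Hoxd13: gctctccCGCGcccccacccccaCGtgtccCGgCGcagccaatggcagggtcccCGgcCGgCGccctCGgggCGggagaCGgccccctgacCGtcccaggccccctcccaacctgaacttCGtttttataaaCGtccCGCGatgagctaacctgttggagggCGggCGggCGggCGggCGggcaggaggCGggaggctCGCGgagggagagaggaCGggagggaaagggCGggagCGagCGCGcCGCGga
Hoxb4: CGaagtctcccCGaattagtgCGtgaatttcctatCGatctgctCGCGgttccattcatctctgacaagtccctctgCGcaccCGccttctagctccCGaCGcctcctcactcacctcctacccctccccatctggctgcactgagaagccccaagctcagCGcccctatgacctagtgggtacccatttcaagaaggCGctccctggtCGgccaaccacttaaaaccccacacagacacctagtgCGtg
Hoxc4: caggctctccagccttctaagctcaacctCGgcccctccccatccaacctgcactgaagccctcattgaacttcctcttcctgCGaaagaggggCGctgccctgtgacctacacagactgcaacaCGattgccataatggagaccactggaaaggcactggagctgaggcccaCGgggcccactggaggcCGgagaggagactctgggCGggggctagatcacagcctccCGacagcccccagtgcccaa
Hoxa11: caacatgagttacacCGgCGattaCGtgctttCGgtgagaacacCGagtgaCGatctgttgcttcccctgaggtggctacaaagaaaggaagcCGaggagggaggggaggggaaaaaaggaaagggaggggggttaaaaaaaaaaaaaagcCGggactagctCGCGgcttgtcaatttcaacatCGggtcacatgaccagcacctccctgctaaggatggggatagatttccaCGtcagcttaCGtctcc

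Hoxa13, at 45 CpGs in its 300 bases, falls in a range (45 to 49) in which 85.7% of other promoters had P2 H3K4me3. Hoxd13, at 37, falls in a range (35 to 39) in which 87.2% had it. At the low end, Hoxa9, which acts in the trunk and in blood progenitors, and Hoxd4, a hindbrain and neck gene, have 4 CpGs. They fall in a range (0 to 4) in which 3.3% of other promoters had the mark. At exactly 4 CpGs, 70 of 947 other promoters had it. The absence of H3K4me3 at the low end is thus common among promoters, while at the high end it is not.

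**Figure D4:**
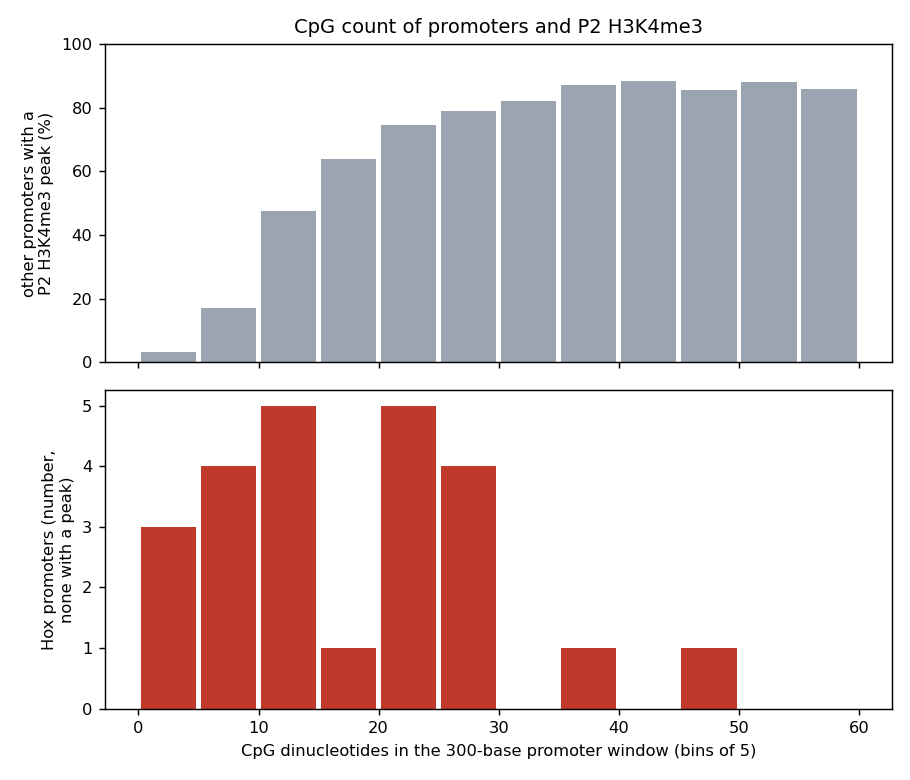
Upper panel, percentage of other promoters overlapped by a P2 H3K4me3 peak, by CpG count in the 300-base window in bins of 5 (bins with under 20 promoters left out); lower panel, number of the 24 Hox promoters in each bin. The percentage runs from 3.3% to 88.4%, and no Hox promoter in any bin has a peak.

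Sequence matches to SOX binding sites were counted in the same windows on both strands. AACAAT was present in 0 of 24 Hox promoters and in 9.05% of all promoters. ACAAAG was present in 6 of 24 Hox promoters (25%), those of Hoxd11, Hoxd3, Hoxd4, Hoxa3, Hoxa11 and Hoxb1, and in 16.8% of all. A match describes letters in the window only, and none of these windows had a SOX peak.

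The clusters also hold genes that make no protein. They include 6 microRNA genes of the table, which target many messages, among them those of Hox genes. None had a peak within 5 kb in any list. They lie inside the clusters, where the Hoxa11 peak was the only peak, so this largely restates the counts above. Mature sequences (RefSeq, GRCm38.p6) are shown 5′ to 3′ with the seed, bases 2 to 8, in capitals. They are of the miR-10 and miR-196 families, which occur in more than 1 cluster and whose copies were all without peaks. miR-10a lies between Hoxb4 and Hoxb5 and miR-10b inside Hoxd4, and they share a seed. miR-196b lies between Hoxa9 and Hoxa10, and miR-196a has a copy in Hoxb and a copy in Hoxc, with another shared seed. The remaining gene, Mir615, lies in the Hoxc cluster, and its sequences are not printed.
mmu-miR-10a-5p: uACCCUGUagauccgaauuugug
mmu-miR-10b-5p: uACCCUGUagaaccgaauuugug
mmu-miR-196a-5p: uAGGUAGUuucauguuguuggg
mmu-miR-196b-5p: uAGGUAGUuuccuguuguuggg

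Of 25 long noncoding RNA genes at the clusters, 3 had a peak within 5 kb, in each case P2 H3K27ac: Hoxa11os and LOC115490410 beside the Hoxa11 peak, and Gm30528, which runs beyond the end of Hoxc4. Hotair, transcribed in the Hoxc cluster, had none. These genes lie in or across the clusters, so their counts also largely restate those of the Hox genes. The lists carry no strand, so Hoxa11 and Hoxa11os cannot be told apart as the source of their peak.

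The genes whose proteins work with Hox proteins or set their chromatin had peaks. The shares of all genes to set beside the next counts are 49.3% and 50.9% for H3K4me3 at P2 and P17, 15.1% and 13% for SOX8, and 27.7% and 15.7% for SOX9. Of 9 genes for the TALE homeodomain cofactors (Meis, Pbx and Pknox), 8 had H3K4me3 at both ages, 8 had P2 SOX9, 5 had P2 SOX8, 6 had P17 SOX9 and 4 had P17 SOX8. Every one of the TALE genes but Meis3 had a SOX peak in some list, and Meis1, Pbx2 and Pknox1 had a peak in all 8 lists. Of 15 Polycomb genes, 14 had H3K4me3 at P2 and 15 at P17. P2 SOX8 lay at 10 of them and P2 SOX9 at 12, and P17 SOX8 and P17 SOX9 at 7 each. Ezh1 was the only Polycomb gene of the list with no SOX peak. Ezh2, Eed and Suz12, the core of the complex that methylates H3K27, had P2 SOX8 and SOX9 peaks and no SOX peak at P17. A peak at P2 only was common in these lists. Over all genes, 1533 had SOX8 at P2 only and 1769 at both ages, and for SOX9 these counts were 3579 and 2494. Of 7 genes of the MLL complexes, 7 had H3K4me3 at both ages, and Kmt2a and Kmt2b, the methyltransferases, had a peak in all 8 lists. Men1, Wdr5, Rbbp5, Ash2l and Dpy30, which encode partners of the methyltransferases, each had a SOX peak in 1 list. Each of these gene lists is small and was not tested.

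Few peaks lay at relatives of the Hox genes. Over all genes, 13% to 27.7% had a peak in the SOX lists, and 49.3% and 50.9% had H3K4me3 at P2 and P17. In sets as small as those below, the SOX shares amount to few genes per list, so a count of 0 there says little. Of 8 Evx and ParaHox genes, 0 had a SOX or H3K4me3 peak at either age, and 7 had no peak in any list, against 17.7% of all genes. Evx1 and Evx2 stand beside Hox clusters, and Gsx1, Pdx1 and Cdx2 lie near one another on chromosome 5. These genes are thus not independent of each other or of the Hox genes. Cdx1, an intestinal and axial regulator that also controls Hox genes, had 6 P2 H3K27ac peaks. Of 13 transcription factor genes of other lineages, 0 had a SOX peak, 5 had P2 H3K27ac (81.8% of all genes) and 3 had P17 H3K27ac (57%). The other 8 had no peak in any list (17.7% of all genes), among them Myod1 of muscle, Nkx2-5 of heart, Foxa2 of endoderm and Gata1 of blood. Tbx5 was the only one of the 13 with an H3K4me3 peak, at P2; it also acts in the dorsal retina. Pax5 of B cells had 40 P2 and 2 P17 H3K27ac peaks, and Hnf4a of liver 7 and 1.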

How the data were processed

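CUT&RUN was performed on wild-type mouse retina at P2 and P17 in 24 libraries, 20 of them with an antibody to SOX8, SOX9, H3K4me3 or H3K27ac. The deposited files used here are 8 peak lists with 349901 peaks in all, 1 per target and age. Bowtie2, SEACR and GRCm38 are named in the submitters' processing notes; versions, the threshold, the use of IgG and the pooling of replicates are not given in the sources used here. The score field of the deposited lists is 0 in every peak, so they carry no height. Sequencing depth is unknown, and a region with few or unmappable reads looks the same in a peak list as one without the target.

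Peak starts were converted to count from 1. Genes, promoters and microRNAs came from RefSeq tables of GRCm38.p6. A gene had a peak when the gene plus 5 kb on each side overlapped it by 1 bp or more, and genes were counted once per symbol on chromosomes 1 to 19, X and Y. Distances ran from gene to peak edge. Counting was checked on simulated peaks at known genes. Python 3.11.15, pandas 2.3.3 and numpy 2.4.6 were used.

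Members and gene lists were chosen with earlier results of these data known. Every member was to be named if it had a SOX or H3K4me3 peak, with the nearest gene outside each cluster end and, of each gene list, counts and members with a SOX peak. As no Hox promoter window was overlapped by a peak, the promoters printed, the CpG classes, the microRNAs and the gaps were chosen after the data were seen. Some of the named genes are not reported here by name. Alternatives were no flank, flanks of 20 and 50 kb, peak centres, and the wider peaks of each list.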

Additional observations from a re-analysis of the deposited data

How the results depend on the processing

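For the 7 lists other than P2 H3K27ac, the count of Hox genes with a peak was 0 under 35 of 35 alternatives: no flank, flanks of 20 kb and 50 kb, peak centres in place of overlap, and the wider 50% of each list. The 50 kb flank was chosen after the data were seen. For P2 H3K27ac the count of 2 was kept with peak centres, and it changed to 1 with no flank (Hoxa11), to 6 with a 20 kb flank and to 15 with a 50 kb flank, where 76.8%, 87.3% and 91.1% of all genes had a peak. It was 0 with the wider 50% of the list and 0 with the widest P2 peaks in the P17 number, where 74.2% and 40.5% of all genes had one. The Hoxa11 peak is thus held only by the narrower peaks of the list. No paired analysis was possible because the lists name no replicate. The lists give no depth, so a weak signal below the threshold is not visible in them, and which reads or which cells lie behind the Hoxa11 peak was not tested.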

Other observations

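Some of the peaks that bound the empty intervals lay at genes with paralogues beside another cluster. This was noticed after the values were seen and was not tested. Of the P2 SOX8 peaks on both sides of the clusters, several overlapped or lay within 1 kb of Hnrnpa, Cbx or Atp5g genes. These were the peaks before Hoxa (Hnrnpa2b1 and Cbx3), before Hoxb (Atp5g1), after Hoxc (Cbx5 and Hnrnpa1), before Hoxd (Atp5g3) and after Hoxd (Hnrnpa3). Of the other peaks, those after Hoxa and Hoxb lay at Tril and Nfe2l1. The peak before Hoxc, the nearer of its pair, had no protein-coding gene within 1 kb. In other lists some bounding peaks lay at further genes of this kind. These were Snx10 before Hoxa, Snx11 and Cbx1 after Hoxb, and Atp5g2 before Hoxc. Many other bounding peaks lay at different genes, such as Jazf1, Hibadh, Smug1, Lnpk and Mtx2, or at none. The Hnrnpa genes encode proteins that bind messenger RNA, the Cbx genes here heterochromatin proteins, and the Atp5g genes subunits of the mitochondrial ATP synthase. Skap1 and Skap2, which encode adaptor proteins of immune cells, flank Hoxb and Hoxa. Skap1 had 22 P2 H3K27ac peaks and no peak in any other list.

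Families of genes for smell and pheromone receptors were set beside the Hox genes, also after the values were seen. Of 1110 genes with a symbol that begins with Olfr, 86.2% had no P2 H3K27ac peak within 5 kb, and of 355 Vmn genes 88.5% had none, against 94.9% of the 39 Hox genes. Other families stood nearer to the Hox genes: 91.5% of 47 Pramel genes and 90.9% of 22 Mup genes had none. Over all protein-coding genes, 81.8% had such a peak.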
